A study of Rattus norvegicus with 30 samples.

Results

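The regions described here are the wide H3K27me3 intervals that were called in the embryonic rat cortex of both diets, called kept wide intervals below. They are the intervals of the HFD H3K27me3 list with a width of 1000 bp or more that shared at least 1 bp with an interval of the control H3K27me3 list. There were 6037 of them among the 49072 intervals of the HFD list, and the 10 peak lists of the series hold 1549251 entries in all. They were set beside the lost wide intervals, which are the 6694 control H3K27me3 intervals of 1000 bp or more without any HFD interval on them. Both sets were therefore chosen by their H3K27me3 calls, and every H3K27me3 value given below is a description of that choice. The other antibodies took no part in it.

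The dams were Wistar rats of 2 diet groups, ordinary chow (control) or, once weaned, a purchased chow rich in fat (HFD), and the sires ate ordinary chow. The frontal cortex of embryos at day 14.5 was used for ChIP-seq with 5 antibodies, of which those against H3K27me3, H3K4me3 and H4K16Ac recognise a modification and those against total H3 and pan H4 do not. The cortices of a whole litter were pooled for a replicate. There were 30 libraries, 3 per antibody and diet, and the authors deposited 1 peak list for every 3. The whole tissue was used, so that a mark in some of the cells and a weaker mark in all of them cannot be told apart. The labels of replicate 3 of control total H3 disagree on the diet, and its title put it with control. With 1 list per antibody and diet, the spread between replicates is unknown and no test was possible. The 95% intervals given with shares (Wilson) and with differences of shares (Newcombe) cover counting error only. Intervals of 1 genome in pooled libraries are not replicates of a diet.

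H3K27me3 is the trimethylation of lysine 27 of histone H3, written by EZH2 within Polycomb repressive complex 2 and known to accompany repressed genes. In stem and progenitor cells, many promoters of developmental regulators carry it next to H3K4me3, the mark of promoters, a state called bivalent. H4K16Ac is an acetylation of histone H4 that goes with open chromatin, and the antibodies against total H3 and pan H4 recognise the histones whatever their modification. In the developing cortex, Polycomb is known to hold back genes of later stages and of other lineages while progenitors still divide.

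For each interval a list gives a fold enrichment over the background expected at that place, and the −log10 of its q-value. The listed values fitted a fold with a constant added to both signal and background. At a low depth such a fold is lower for the same ratio of signal to background. The lists were lenient, holding peaks with a q of up to 0.50, and they differed in depth. The background pileup read from the values was 0.351 fragments per base in the HFD H3K27me3 list, which is 39.9% of the 0.880 in the control list. HFD lists of the other antibodies had between 87.7% and 111% of the control value. The part of this depth in any loss of H3K27me3 calls, or in their folds, was not tested.

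The fold enrichment of most kept wide intervals was lower in HFD than in control. Their width ran from 1000 to 5906 bp with a median of 1307 bp (quartiles 1138 and 1598 bp). Their median fold enrichment was 3.06 in HFD, and that of the control intervals under them was 4.25. On the log2 scale the fold of HFD over control had a median of −0.39, and 20.4% of the kept wide intervals were higher in HFD. The −log10 q had a median of 1.01 in HFD and of 7.65 in control. In HFD, 2953 (48.9%) lay under a −log10 q of 1, 1803 (29.9%) had a q of 0.05 or less, and 147 (2.43%) reached a −log10 q of 5. In control, 3443 (57.0%) reached 5. As −log10 q and fold both depend on depth, none of these medians can be compared between the diets as amounts of the mark. Of all HFD H3K27me3 intervals, 51.8% overlapped a control interval, and of all control intervals, 56.2% had no HFD overlap.

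In length the kept wide intervals differed from their control counterparts in both directions. The median of HFD minus control width was −17 bp, with quartiles of −321 and 446 bp. The HFD intervals covered a median of 84.0% of the control length below them, and a median of 90.1% of the HFD length lay inside control. The HFD interval was wider than the control interval at 2917 positions (48.3%), narrower at 3116 (51.6%) and equal at 4. At 1876 (31.1%) it lay wholly inside the control interval, and at 903 (15.0%) it covered the control interval completely. As many as 1695 (28.1%) sat on control intervals narrower than 1000 bp, which means that they passed the width limit in HFD only. Only 33 touched 2 control intervals and none touched more. The width limit cut through a continuous distribution. The 569 kept intervals of 1000 to 1049 bp had a median HFD fold of 3.11, and the 637 intervals of 950 to 999 bp just outside the limit had 3.12. An HFD H3K4me3 peak lay on 92.8% of the former and on 93.2% of the latter.

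Seen from control, staying wide was the least frequent outcome. Of the 17846 control intervals of 1000 bp or more, 4346 (24.4%, 23.7% to 24.99%) lay under a kept wide interval, 6806 (38.1%) carried only HFD intervals under 1000 bp, called kept narrow, and 6694 (37.5%) were lost. When these control intervals were ordered into 10 groups of nearly equal size, called deciles, by their −log10 q, the lost share fell from 78.6% in the weakest decile to 3.64% in the strongest. The kept wide share rose from 5.16% in the weakest decile to 39.3% in decile 7, and was 34.8% in the strongest. The kept narrow share went up through all deciles, from 16.3% to 61.5%.

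Ordering by control fold enrichment gave a sharper bend. The kept wide share was largest, 45.9%, in decile 8, which held control folds of 5.26 to 6.32, and only 16.6% in the highest decile, with folds of 7.34 to 11.4. In that highest decile 75.7% were kept narrow and 7.68% were lost. The steepest control intervals were also short, with a median width of 1110 bp in the highest decile against 1498 bp in decile 8. Ordered by control width, the kept wide share rose in nearly every step, from 10.1% at 1000 to 1059 bp to 43.5% at 2171 bp or more, and the lost share moved from 42.8% to 25.8%. Each measure was taken singly, and the kept wide share was thus high among wide and strong control intervals and low among the steepest.

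**Figure D1:**
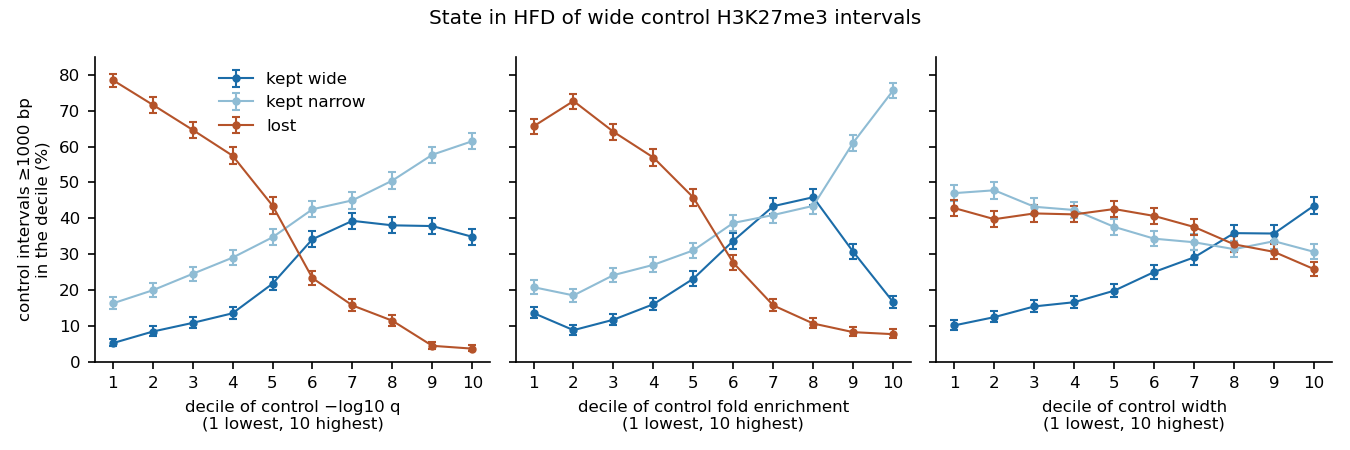
State in HFD of the 17846 control H3K27me3 intervals of 1000 bp or more, in deciles of their control −log10 q (left), fold enrichment (middle) and width (right). Points are the percent of each decile kept wide, kept narrow or lost, with 95% Wilson intervals, and the kept wide share peaks at 45.9% in decile 8 of fold and drops to 16.6% in the highest.

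Within the kept wide intervals the HFD fold hardly rose with the control fold. In the 1600 whose control −log10 q was under 2, the median fold was 2.84 in control and 2.82 in HFD. In the 994 between 2 and 5 it was 3.63 in control and 3.09 in HFD. In the 1433 between 5 and 20 it was 4.84 in control and 3.15 in HFD, and in the 2010 at 20 or more it was 6.38 in control and 3.20 in HFD. Control fold therefore rose over 2-fold across the classes, whereas the HFD fold stayed between 2.82 and 3.20. Widths changed places in the same order. The HFD median was 1284 bp against 1050 bp in control in the weakest class, and 1286 bp against 1467 bp in the strongest. The classes were cut by control −log10 q, so that the rise of control fold across them belongs to that choice. A lower depth also lowers fold, and its part in the flat HFD folds was not tested.

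H3K4me3, the promoter mark, lay on nearly all kept wide intervals. An HFD H3K4me3 peak overlapped 5706 of 6037 (94.5%, 93.9% to 95.1%), compared with 61% of all HFD H3K27me3 intervals. Among the lost wide intervals it overlapped 4570 of 6694 (68.3%, 67.1% to 69.4%), compared with 74.3% of all control H3K27me3 intervals. The difference was 26.2 percentage points (24.99 to 27.5). In the control H3K4me3 list the shares were 94.2% of the kept wide and 68.8% of the lost wide intervals, a difference of 25.4 points, with 60.4% of all HFD and 75.2% of all control H3K27me3 intervals as the background. Lost wide intervals thus lay below the average of their own list and kept wide intervals far above that of theirs. These averages are not matched in width or overlap. The median width was 488 bp over all HFD and 714 bp over all control intervals, and 51.8% of all HFD intervals overlapped control. HFD intervals under 1000 bp that overlapped control already had HFD H3K4me3 on 91.7%.

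The peaks also differed in strength. When H3K4me3 peaks had to reach a −log10 q of 5, 76.6% of the kept wide and 23.0% of the lost wide intervals had one in HFD, with 40.3% of all HFD and 44.3% of all control intervals as the background, a difference of 53.7 points (52.2 to 55.1). In control the shares were 77.1% and 25.3%, with backgrounds of 40.5% and 45.8%. The strongest HFD H3K4me3 peak on an interval had a median −log10 q of 20.6 on kept wide and 3.30 on lost wide intervals. In control these medians were 24.5 and 3.58. H3K4me3 peaks covered 66.2% of the bases of the kept wide and 29.7% of those of the lost wide intervals in HFD.

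The pairing of the marks was the same in both diets for most kept wide intervals. H3K4me3 was called in both diets on 5514 (91.3%), in control only on 171, in HFD only on 192 and in neither on 160. Of all HFD H3K27me3 intervals 53.6% had it in both diets, and of all control intervals 65.6%. Of the lost wide intervals 3725 (55.6%) had it in both diets, 880 in control only, 845 in HFD only and 1244 in neither. Gain and loss of H3K4me3 calls were thus nearly balanced in each set. Where a peak was called in both diets, the log2 ratio of the H3K4me3 fold in HFD over control had a median of −0.03 on kept wide intervals and −0.01 on lost wide intervals.

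**Figure D2:**
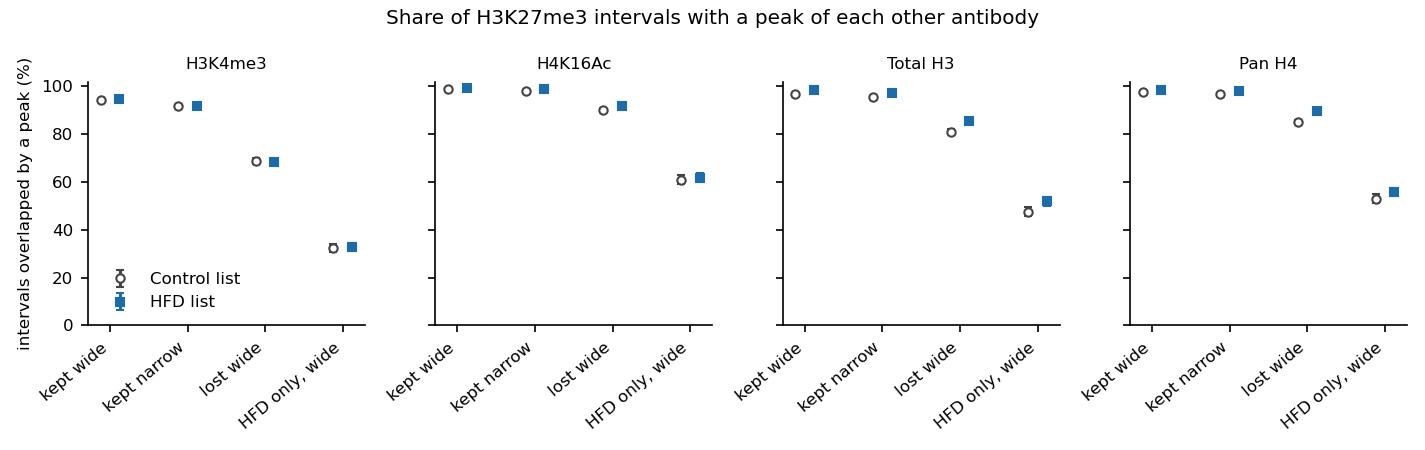
Percent of H3K27me3 intervals overlapped by a peak of each other antibody, for kept wide (n = 6037), kept narrow (n = 19376, HFD intervals under 1000 bp on control intervals of any width), lost wide (n = 6694) and wide intervals called in HFD only (n = 2859), with open circles for the control list, filled squares for the HFD list and 95% Wilson intervals. For all 4 antibodies and in both diets the kept wide share is the highest, with the kept narrow share close to it, and the wide intervals of HFD only are the lowest, at 32.9% for HFD H3K4me3.

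H4K16Ac, the acetylation of open chromatin, overlapped 99.2% of the kept wide and 91.7% of the lost wide intervals in HFD, a difference of 7.49 points (6.81 to 8.21), where 77.1% of all HFD and 91.7% of all control intervals had it. In the control H4K16Ac list the shares were 98.7% and 90.1%, with backgrounds of 76.3% and 90.6%. The lost wide intervals were therefore near the average of their list for this mark. The acetylation was stronger on the kept wide intervals, where the median −log10 q of its peaks was 7.63 in HFD against 3.29 on lost wide intervals, and it covered 87.5% of their bases against 73.8%. At a −log10 q of 5 or more its HFD peaks lay on 67.8% and 23.1%, with backgrounds of 43.2% and 47.7%.

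Without a limit on the q of the H3K27me3 intervals, the antibodies against the histones themselves gave the same order. A total H3 peak overlapped 98.3% of the kept wide and 85.4% of the lost wide intervals in HFD, a difference of 13.0 points (12.1 to 13.9), with 71.8% of all HFD and 86.7% of all control intervals as the background. Pan H4 overlapped 98.4% and 89.6%, a difference of 8.84 points (8.05 to 9.64), with backgrounds of 74.1% and 90.1%. In control, total H3 lay on 96.7% and 81.0% (backgrounds 69.3% and 84%), and pan H4 on 97.5% and 85.2% (backgrounds 71.7% and 87%). The signal of the histones thus moved with the marks, and its part in the H3K4me3 difference was not tested.

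Taken over all 4 other antibodies, 5640 kept wide intervals (93.4%) had a peak of each of them in HFD and 18 (0.298%) had none. Among all HFD H3K27me3 intervals 57.7% had all 4 and 19.4% had none, and among all control intervals these shares were 70.3% and 4.86%. Of the lost wide intervals 4216 (63.0%) had all 4 and 301 (4.50%) had none. In control the numbers were 5572 with all and 33 with none among the kept wide, and 4130 and 396 among the lost wide intervals. Between the diets the fold enrichment of these antibodies moved little on kept wide intervals. The median log2 ratio of HFD over control was 0.04 for H4K16Ac and −0.02 for total H3. Pan H4 was higher in HFD, with 0.18 on kept wide intervals, 0.35 on lost wide intervals and 0.25 on all HFD H3K27me3 intervals.

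In the share with an overlap of at least 1 bp, the kept wide intervals were close to the kept narrow ones. HFD H3K4me3 lay on 91.7% of the 19376 kept narrow intervals, H4K16Ac on 98.8%, total H3 on 97.0% and pan H4 on 97.8%. Their median H3K4me3 −log10 q was 17.5, near the 20.6 of the kept wide intervals. The kept narrow intervals, with a median width of 501 bp, were covered more fully by HFD peaks of all 4 antibodies. H3K4me3 covered 84.1% of their bases against 66.2%, and total H3 89.8% against 71.2%. The median fold of the peaks was also higher on them for all 4, as with 7.75 against 6.87 for H3K4me3. The 2859 wide intervals of HFD without control overlap stood at the other end, since 32.9% of them had HFD H3K4me3, 61.8% H4K16Ac, 51.9% total H3 and 55.8% pan H4. Their own median HFD fold was 2.75 and their highest −log10 q was 3.32.

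Much of the contrast with the lost wide intervals went with the control strength of the mark. The lost wide intervals were weak, with a median control −log10 q of 1.04, and 3169 (47.3%) lay under 1. Control intervals of 1000 bp or more were therefore compared within classes of their control −log10 q. Under 1, HFD H3K4me3 lay on 83.2% (78.8% to 86.9%) of 322 control intervals under a kept wide interval and on 53.9% (52.1% to 55.6%) of 3169 lost ones. From 1 to 2 the shares were 92.5% and 73.1%, and from 2 to 5 they were 98.9% and 88.0%. From 5 to 20 they were 99.9% and 97.8%, and at 20 or more 99.9% and 99.6%. Within the weak classes the difference thus remained outside the counting error, and in the strong ones nearly every interval of both kinds had H3K4me3. In the weak classes the intervals under a kept wide one were also wider, with medians of 1442 against 1278 bp under 1. Wide control intervals with only HFD intervals under 1000 bp had HFD H3K4me3 on 78.0%, 89.7% and 98.6% in the same classes. When only the 581 lost wide intervals as strong as the median control interval under a kept one were used, 98.6% of them had HFD H3K4me3. The difference from all 6037 kept wide intervals was then −4.11 points (−5.01 to −2.68), in the opposite direction, since the kept wide intervals still included the weak ones. When all lists were limited to a −log10 q of 2, there were 633 kept wide and 8536 lost wide intervals. The H3K4me3 difference was then 2.38 points (1.59 to 2.76). At a limit of 5, with 140 and 7446, it was 0.132 points (−3.09 to 0.765), which is within the counting error. These limits also turned kept intervals into lost ones, as an HFD interval below the limit no longer counted. Of the 6694 intervals lost without a limit, 725 had a control −log10 q of 5 or more. The other antibodies also depended on these choices. Against the 581 strong lost wide intervals the difference in HFD was 0.0489 points (−0.508 to 1.20) for H4K16Ac. It was −0.313 points (−1.08 to 1.04) for total H3 and −0.557 points (−1.22 to 0.678) for pan H4. Each of these lay within the counting error. At a −log10 q limit of 2 the difference was 2.14 points for H4K16Ac, 0.680 for total H3 and 0.404 for pan H4. At a limit of 5 these values were 14.7, 1.34 and 0.295 points, so that H4K16Ac then differed more than H3K4me3. Total H3 and pan H4 stayed within the counting error at both limits.

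A small group of strong control intervals was lost nonetheless. Of the lost wide intervals 725 (10.8%) had a control −log10 q of 5 or more, and HFD H3K4me3 was still called on 714 of these (98.5%). In the class of 20 or more, the 276 lost intervals had a median HFD H3K4me3 −log10 q of 48.2, compared with 59.3 on 1753 control intervals under a kept wide interval. In the class from 5 to 20 these medians were 17.0 and 22.4. The lost intervals of these classes were also narrower and weaker in control, with a median width of 1166 against 1532 bp and a median −log10 q of 29.0 against 36.5 in the class of 20 or more, so that the classes matched control strength only roughly.

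Turned around, H3K4me3 strength graded the outcome of the wide control intervals. Of the 2574 without a control H3K4me3 peak, 4.70% were kept wide and 81.2% lost. With an H3K4me3 −log10 q of 5 to 10, 24.5% were kept wide and 39.3% lost. From 20 to 50, 38.7% were kept wide and 12.3% lost, and at 100 or more 35.9% were kept wide, 61.3% kept narrow and 2.83% lost. As with the strength of H3K27me3 itself, the lost share fell throughout while the kept wide share levelled off.

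Across the 6037 kept wide intervals the control strengths of the 2 marks ran in parallel. Spearman's rho between the −log10 q of control H3K27me3 and that of control H3K4me3 was 0.93, and 0.91 with HFD H3K4me3. With control pan H4 it was 0.71, with total H3 0.62 and with H4K16Ac 0.52. In HFD the order was lost. HFD H3K27me3 had a rho of 0.42 with HFD H3K4me3, 0.48 with H4K16Ac, 0.48 with total H3 and 0.49 with pan H4, so that H3K4me3 no longer stood out. Between the diets rho was 0.33 for H3K27me3, 0.94 for H3K4me3, 0.93 for H4K16Ac, 0.84 for total H3 and 0.91 for pan H4. These are descriptions over regions of 1 genome that share libraries, depth and local background, and the range of HFD H3K27me3 values was narrow. In the lost wide intervals control H3K27me3 and control H3K4me3 had a rho of 0.59 over 6694 intervals.

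**Figure D3:**
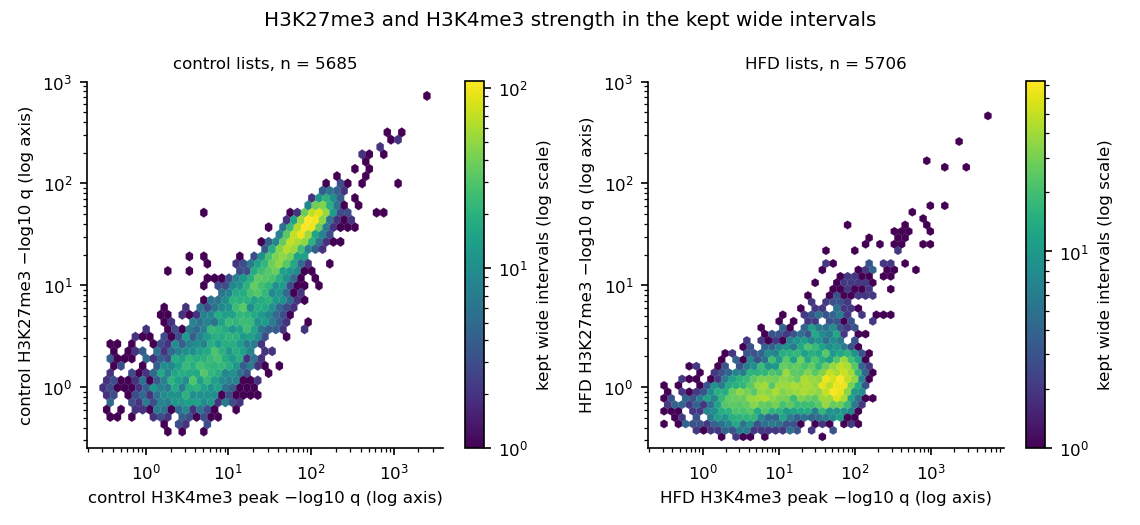
The −log10 q of H3K27me3 against that of the strongest overlapping H3K4me3 peak in the kept wide intervals, both on log axes, for the control lists (left, 5685 intervals with a peak) and the HFD lists (right, 5706), with colour for the number of intervals per hexagon. The control points form a narrow band and the HFD points a flat cloud near a −log10 q of 1, with rho of 0.93 and 0.42 over all 6037 intervals.

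Coverage along the interval also differed between the 2 kinds. The shares at a position were taken over all intervals, also those without a peak, so that they hold presence and peak length as well as placement. At the middle of the kept wide intervals 65.6% had an HFD H3K4me3 peak, at 1000 bp to the right 18.7% and at 1000 bp to the left 17.4%. At the middle of the lost wide intervals the share was 24.0%. H4K16Ac was at the middle of 90.0% of the kept wide and 73.0% of the lost wide intervals, and had the highest share of the 4 at 1000 bp on either side of both. The strongest HFD H3K4me3 summit lay a median of 372 bp from the middle of kept wide and 460 bp from that of lost wide intervals, and inside the interval in 92.2% and 89.2% of those with a peak. The H3K4me3 peaks themselves were longer, with a median of 1158 bp on kept wide and 547 bp on lost wide intervals. HFD H3K4me3 covered 26.0% of the kept wide intervals with a peak from end to end and 2.76% of the lost wide ones. Total H3 dipped at the middle of the lost wide intervals, to 30.8% from 47.3% at 500 bp to the left and 46.8% to the right, and pan H4 to 37.0% from 55.2% and 55.5%. On kept wide intervals the dip was shallower, with 69.5% against 73.4% and 73.3% for total H3 and 72.8% against 77.0% on both sides for pan H4.

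**Figure D4:**
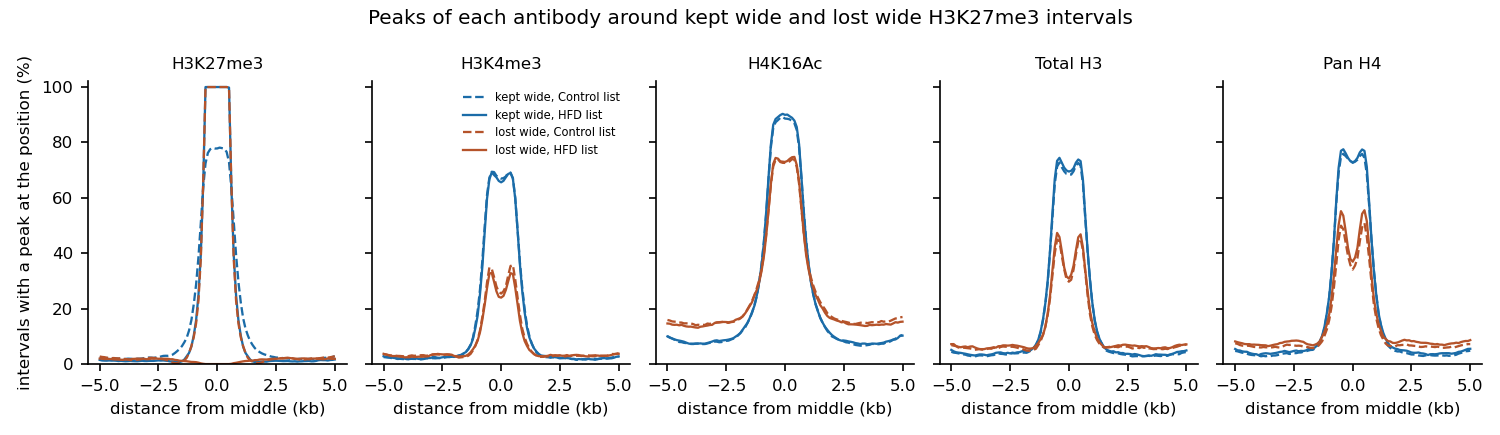
Percent of kept wide (blue, n = 6037) and lost wide (orange, n = 6694) intervals with a peak of each antibody at a distance of up to 5 kb from the middle of the interval, with dashed lines for the control and solid lines for the HFD list. The HFD H3K27me3 line of the kept wide and the control line of the lost wide intervals are at 100% in the middle because of the width limit, and HFD H3K4me3 is at 65.6% on kept wide and 24.0% on lost wide intervals.

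The kept wide intervals were also divided by their HFD width. There were 4133 (68.5%) of 1000 to 1499 bp, 1282 of 1500 to 1999 bp, 562 from 2000 to under 3000 bp and 60 of 3000 bp or more. Their median HFD fold was 3.09, 3.04, 2.95 and 2.75 in that order, so that the wider intervals were slightly flatter. HFD H3K4me3 was on 93.6%, 96.1%, 96.8% and 100%, and covered 68.9%, 64.8%, 58.6% and 64.3% of the bases. The median control −log10 q was 7.80, 8.70, 5.49 and 6.20. The median control fold was lower in the wider classes, with 4.53, 4.23, 3.49 and 2.94. The local background of the HFD H3K27me3 list, estimated from fold and p, was at least 10 times the background of the list at 1.91%, 4.21%, 12.6% and 51.7% of the intervals in the same order, the last being 31 of 60.

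Such high local background marked 235 kept wide intervals (3.89%). Its part in the width and strength of these intervals was not tested. These 235 had a median width of 1865 bp and a median HFD −log10 q of 4.10 at a fold of 3.17, compared with 1298 bp, 0.99 and 3.06 in the other 5802. They made up 105 of the 147 kept wide intervals with an HFD −log10 q of at least 5. The estimate uses the p-value of the interval itself, so that at a given fold a higher −log10 p gives a higher background. The higher −log10 q of the 235 thus belongs in part to how they were chosen. HFD H3K4me3 was on 98.3% of them and on 94.4% of the others. Without them, and without the 173 lost wide intervals with such a background in the control list, the difference in HFD H3K4me3 between kept wide and lost wide intervals was 26.9 points. The estimates of both lists are not on the same scale, and the numbers left out are not to be compared.

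**Figure D5:**
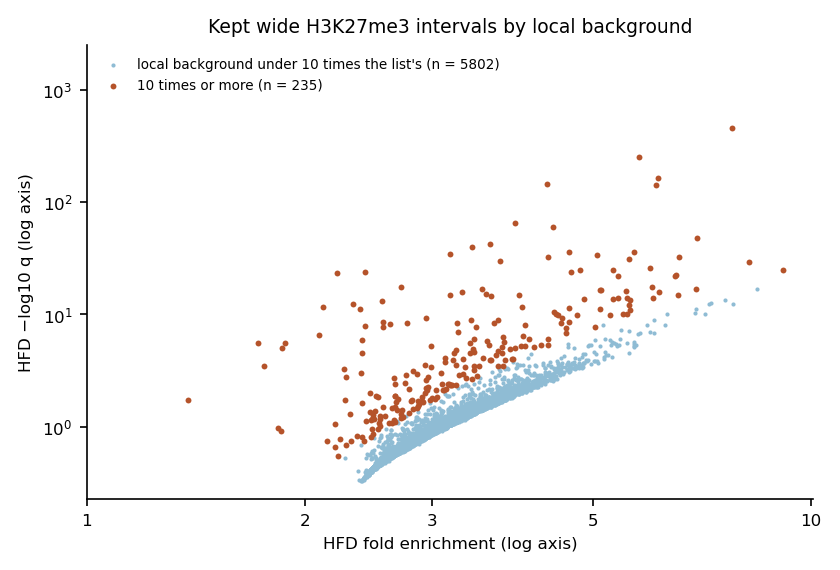
HFD fold enrichment (log axis) against HFD −log10 q (log axis) of the 6037 kept wide intervals, with the 235 of high local background in orange and the other 5802 in blue. The blue points rise along a single band, and the orange points lie above it at the same fold and hold 105 of the 147 intervals with a −log10 q of 5 or more. As local background was estimated from fold and p, the place of the orange points above the band follows from the estimate.

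The single intervals that lead by width or strength all belonged to that group, which for strength follows in part from the estimate. The widest kept interval was chr1:11961300-11967205 (rn6, 5906 bp), with a fold of 1.88 and a −log10 q of 5.56 in HFD. Its control interval was 3489 bp wide with a fold of 1.47, and an HFD H3K4me3 peak with a fold of 2.51 lay on it. The second was chr6:30628083-30633431 (5349 bp), with folds of 2.71 in HFD and 2.78 in control and an HFD H3K4me3 fold of 6.58. The third was chr14:46522448-46527534 (5087 bp), with folds of 2.42 in HFD and 2.16 in control. The 10 widest ran from 3943 to 5906 bp, with HFD folds of 1.76 to 3.69 and HFD −log10 q of 1.74 to 23.7. Their local background was 27.9 to 231 times that of the list, and each had peaks of all 4 other antibodies in both diets. Most of the 10 lay below the median HFD fold of 3.06 of all kept wide intervals, and the narrowest of them, with 3.69, lay above it.

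The strongest kept interval outside these was chr1:180644564-180646401 (1838 bp), with a −log10 q of 460 and a fold of 7.79 in HFD. In control the same position had 791 and 7.26, and 99.7% of the control interval was covered. Its HFD H3K4me3 fold was 17.8 and its H4K16Ac fold 7.35. Next came chr1:180808329-180809448 (1120 bp), with a fold of 5.79 in HFD and 4.26 in control, and chr19:56337665-56339349 (1685 bp), with 6.15 and 5.72. The other two were chr13:33502555-33505312, with 4.31 and 3.85, and chr7:22327168-22328841, with 6.10 and 5.62. In these 5 intervals the fold was higher in HFD than in control, unlike in most kept wide intervals, and their local background was 156 to 326 times that of the list.

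Among the lost wide intervals the widest was chr12:13803699-13812030 (8332 bp), with a control fold of 2.06 and a −log10 q of 8.81, and HFD H3K4me3 peaks covered 52.9% of it. The next were chr19:10440306-10444875 (4570 bp), chr10:109420851-109425409 (4559 bp), chr3:161539719-161543953 (4235 bp) and chr20:3553366-3557555 (4190 bp). Their control folds were 2.97, 1.95, 2.68 and 3.17. Peaks of all 4 other antibodies lay on each of these 5 in HFD. In the control H3K27me3 list the local background was 57.2 times that of the list at the widest, 62.4 times at the third and 18.7 times at the fifth, and under 10 times at the other two.

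Most kept wide intervals stood alone. With gaps under 50 kb joined, 3832 (63.5%) had no neighbour, and 60 runs of 5 or more held 425 (7.04%). The run with the most members had 16 intervals in 313 kb at chr9:12181507-12494662, with a median HFD fold of 3.03 and a control fold of 2.57, and HFD H3K4me3 was on all 16. A run at chr19:155922-395278 had 15, with HFD H3K4me3 on 14 and a fold of 3.07 in HFD and 3.12 in control. Runs of 14 lay at chr1:55638172-55773164 and chr14:46496310-46683253, with HFD folds of 2.62 and 2.61. High local background was found for 9 of the 16, 4 of the 15, and 11 of the 14 in each of the last pair. Over all runs of 5 or more it was found for 132 of the 425.

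The kept wide intervals were spread over the genome, with 5986 on chromosomes 1 to 20, X and Y, 48 on unplaced scaffolds and 3 on the mitochondrial genome, which carries no histones. The share of wide control intervals that stayed wide ran from 19.4% (16.6% to 22.5%) on chromosome 12 to 29.3% (25.5% to 33.5%) on X, with 4 of 9 on Y. On chromosome 12 47.4% were lost and on X 32.7%. HFD H3K4me3 lay on 92.1% of the kept wide intervals of chromosome 12 and on 97.8% of those of X. The chromosomes thus differed by less than the deciles of control strength did.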

How the data were processed

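ChIP-seq of E14.5 rat frontal cortex was analysed from 10 peak lists, 1 for each of 5 antibodies and 2 diets. Per the labels and methods, Bowtie2 was the aligner, rn6 the build and MACS2 the peak caller, run on the 3 libraries of a group together. Recommended options were used for peak calling, per the methods, without a list of them. Treatment of duplicate reads and any input library are not given in the sources used here. H3K27me3 and H4K16Ac lists hold broad peaks, whose values are averages over the region, and the others narrow peaks, whose values belong to the summit. The deposited columns are a score, which the authors' peak caller derives from the q-value, a fold enrichment, the −log10 p-value and −log10 q-value. In the narrow lists the distance of the summit from the start is also given. The fold is a ratio of signal to expected local background, with a constant added to each. The score was not used for any result.

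Computed here were overlaps of at least 1 bp, covered bases, shares with 95% Wilson intervals and differences with Newcombe intervals. The tools were pandas 2.3.3 and numpy 2.4.6 under Python 3.11.15, scipy 1.17.1 for intervals and correlations, and matplotlib 3.10.9 for plots. Entries of a narrow list with the same ends were taken as 1 interval. The strongest peak on an interval gave its −log10 q and fold, and in correlations an interval without a peak counted as 0. The background pileup of a list came from its most frequent fold and p, and local background from the fold and p of an interval. The latter is approximate for broad peaks, and intervals were grouped by it only as 10 times the list's background or more. Its lowest value was 2.22 times the list's background over kept wide intervals and 1.00 times over lost wide ones. The multiples given for named regions are therefore rough. In a check on simulated intervals and values, 300 of 300 overlaps and 300 of 300 backgrounds were recovered.

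The members and lists were chosen with earlier results of these data known. Named regions were the 10 widest kept, the 5 strongest kept outside these, the 5 widest lost and the 3 runs with the most members, where a tie for the last place left 4. No gene was named and no sequence printed, because the tables at hand describe another assembly (GRCr8) and positions were not moved between builds.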

Additional observations from a re-analysis of the deposited data

How the results depend on the processing

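No paired analysis was possible because the 3 libraries of a group were called into 1 list, and no library could be left out either. Of 72 alternative values 30 stayed within the counting interval of the reported value or within 1.5 times the reported count, and 45 of the 48 differences between kept wide and lost wide intervals kept their direction. Among these 45 were differences within the counting error, such as that of pan H4 at 2000 bp or wider (−0.304 to 2.76). Both counts also include the joining of gaps, which could change nothing. Joining gaps of 500 bp or less changed nothing, as no gap between H3K27me3 intervals of a list was that short, and neither chromosomes 1 to 20, X and Y alone nor leaving out intervals of high local background (an alternative chosen after seeing the data) moved any of the 7 results. With a −log10 q of at least 2 in every list, 633 intervals were kept wide, 8536 were lost and the control length kept was 92.4%. The differences fell to 2.38 points for H3K4me3, 2.14 for H4K16Ac, 0.680 for total H3 and 0.404 for pan H4. With at least 5 these values were 140 and 7446 intervals, 97.8%, 0.132, 14.7, 1.34 and 0.295 points. The lost intervals of these limits include many that were kept without a limit. At 1500 bp or wider there were 1904 kept and 1949 lost intervals, 89.5% of control length, and differences of 17.6, 2.71, 6.29 and 2.89 points in the same order. At 2000 bp or wider these were 622, 650, 93.1%, 14.5, 1.83, 4.41 and 1.18. An overlap of at least 50% of the shorter interval gave a control length of 85.4%. With control intervals on both sides the differences were 29.4 points (H3K4me3), 13.9 (total H3) and 9.67 (pan H4). With 1000 bp around the middle they were 30.4 for H3K4me3, 9.47 for H4K16Ac, 16.8 for total H3 and 11.8 for pan H4, and with 50% of the interval covered 45.9, 17.5, 39.5 and 32.6. Set against lost wide intervals as strong as the median control interval under a kept one (n = 581), they were −4.11, 0.0489, −0.313 and −0.557. The sign of 3 of the 4 reversed, but only the H3K4me3 difference lay outside the counting error. This last setting restricts the lost side alone. What else moved the other values was not tested. The lower depth of the HFD H3K27me3 list, and the single list per group, limit every statement on loss and on the fold of H3K27me3.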
